A study of Drosophila melanogaster with 2 samples.

Results

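Near-start intronic peaks are sites of CG34376 binding that lie inside a gene, outside every UTR and coding exon, and more than 500 bp but at most 2000 bp from the closest annotated transcription start. The rule used only the position of the summit, the point of highest signal within a peak. It kept 1083 of the 7025 thresholded peaks, which is 15.4% (95% Wilson interval 14.6 to 16.3%). Of the rest, 4302 were promoter peaks, with a summit at most 500 bp from a start, 965 were intronic more than 2000 bp from a start, called far intronic here, and 466 were intergenic.

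The data come from chromatin immunoprecipitation followed by sequencing (ChIP-seq) of a transgenic fly line that stably expresses CG34376 with GFP joined to its C terminus. Chromatin was taken from whole Drosophila melanogaster embryos of mixed sex at 0 to 24 h, sheared by sonication to 200 to 800 bp. The 2 libraries, biological replicates 2 and 3, form 1 group, and the labels do not say which sequences drive the transgene. A free-text label says input control for each, but the assay and antibody fields and a separate listed control mark both as ChIP samples, which is how they were read. In whole embryos, binding in few cells cannot be told apart from weak binding in many cells.

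Introns close to a start, and the first intron above all, often hold enhancers and second promoters in flies. GATA factors such as serpent (srp), pannier (pnr), GATAe and GATAd bind words with a GATA core, and u-shaped (ush) is a cofactor that binds GATA factors and modulates their activity in blood, heart and dorsal tissue. The GAGA factor, encoded by Trithorax-like (Trl), binds GA repeats and helps to keep regulatory DNA accessible. The DNA replication-related element, or DRE, is bound by DREF and is typical of the promoters of housekeeping genes.

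The sequences below show the GATA word that marked many of these introns, taken from strong members that hold it within 100 bp of the summit, with 1 chromosome arm left out. Each line has 30 bases of the Release 6 RefSeq sequence (build dm6), read 5′ to 3′ on the strand named after it, with GATAAG in capitals. The first comes from chr3R:8810635-8810664 on the plus strand, the second from chrX:4325028-4325057 on the minus strand and the third from chr3L:17531549-17531578 on the minus strand. The fourth comes from chr2L:8987721-8987750, the fifth from chr2L:4997809-4997838 and the sixth from chr3L:14785054-14785083, all on the plus strand.
CG9837: agccactatagcGATAAGgtgcgaatgcta
norpA: tttgtgcagacgGATAAGtgctgatttaaa
Nedd4: agcggaggcactGATAAGggcgaccaaatc
rost: tgttggctgtctGATAAGgtctagcaagaa
Rtnl1: ttgaaagtaaaaGATAAGgcgcagtaacaa
bmm: ttggcaattgaaGATAAGatatgctgtgag

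The GATA words above were chosen for lying within 100 bp of the summit, so their closeness to it is no result. The centre of the word was 30 bp to the right of the summit in CG9837, 60 bp in norpA, 43 bp in Nedd4 and 52 bp in rost. It was at -74 bp in Rtnl1 and at -37 bp in bmm, where a minus sign means to the left. These 6 peaks ranked 65, 70, 130, 135, 245 and 264 among all thresholded peaks. Outside the shared core the letters differ from member to member.

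The DRE, TATCGATA, and the GA repeat, GAGAGAG, were rarer, and are shown in capitals for strong members with each, with the same arm left out. All lines are on the plus strand, except the last, which is on the minus strand. The first 3 hold the DRE and come from chrX:21053310-21053339, chrX:17285350-17285379 and chr3L:262918-262947. The other 3 hold the GA repeat and come from chr2L:3302075-3302104, chr3R:11761113-11761142 and chrX:7706853-7706882.
Stt3A: gtgtatcaagcTATCGATAttctagcaggg
CG5445: agaggggaccgTATCGATAaggatttatac
Tudor-SN: accaaacacacTATCGATAtatgtaatatt
CG9663: acatgtaaaacGAGAGAGtatcacacaggg
Lk6: ctttcagtgcaGAGAGAGccctgtttcatt
CHES-1-like: ggcaaatcaaatGAGAGAGccaaagagagt

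In the CG5445 line the letters after the DRE complete a GATAAG that overlaps it. Stt3A, a catalytic subunit of the oligosaccharyltransferase, ranked 730, CG5445 ranked 2232 and Tudor-SN, a nuclease of RNA silencing complexes, ranked 4030. With the GA repeat, CG9663, an ABC transporter gene, ranked 12, Lk6, a kinase of the translation factor eIF4E, ranked 13, and CHES-1-like, a forkhead-domain factor, ranked 149.

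The first question was how often CG34376 was found in such introns for the sequence they offer. Near-start intronic sequence made up 12.2 Mb, or 9.09% of the chromosome arms, and held 89.0 thresholded summits per Mb (exact 95% Poisson interval 83.7 to 94.4). Promoter sequence held 237 per Mb (230.1 to 244.3), far intronic sequence 23.1 (21.7 to 24.6) and intergenic sequence 12.8 (11.6 to 14.0). None of these intervals overlap, so near-start introns lay between promoters and the other classes. The same rule applied to the 7025 highest candidates of each replicate kept 1104 in replicate 2 and 1043 in replicate 3 (mean 1073.5 ± 43.1, SD, n = 2).

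Over both sides of the start together, the density fell with distance, but not steadily. It was 98.9 per Mb in the first 250 bp of the zone (87.1 to 111.8), then 97.9, 97.5 and 92.0 in the next 3 steps of 250 bp. It was 72.3 (60.3 to 86.1) from there to 1750 bp and 63.9 (52.2 to 77.5) in the last step to 2000 bp. The sides differed in course. In the same steps, the downstream density was 92.7, 98.1, 104.9, 101.3, 68.3 and 69.9 per Mb, with no early fall. Upstream it was 109.8, 97.5, 83.0, 73.6, 80.3 and 52.1. Over the whole zone, the density was 90.6 per Mb downstream of the nearest start (84.1 to 97.4). Upstream it was 85.9 (77.2 to 95.2), with overlapping intervals. Members downstream numbered 725, or 66.9% (64.1 to 69.7%), and 65.7% of the eligible bases lay on that side.

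**Figure D1:**
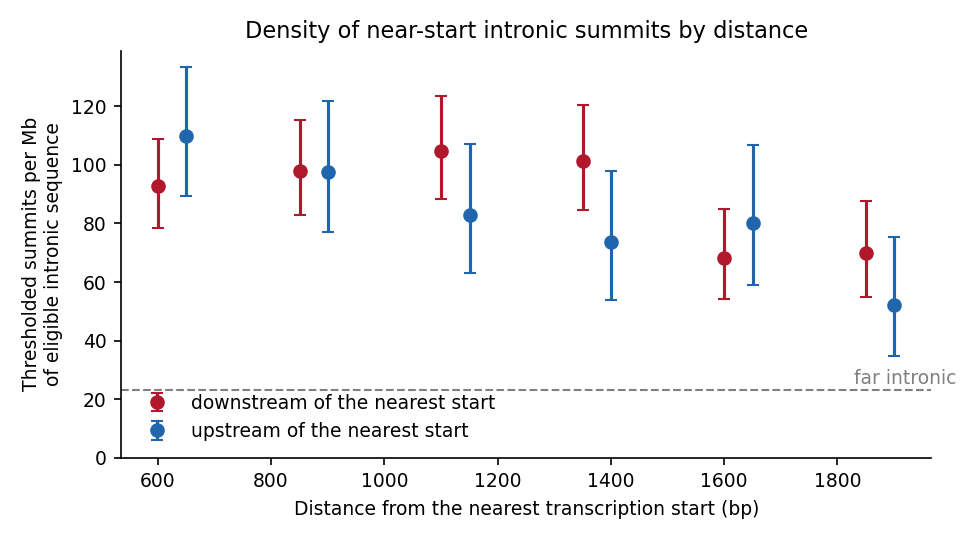
Near-start intronic summits per Mb of eligible sequence (vertical axis) against distance from the nearest transcription start in bp (horizontal axis), downstream in red and upstream in blue, with exact 95% Poisson intervals over peaks. Points are drawn side by side within bins of 250 bp, and all lie above the dashed line for far intronic sequence at 23.1 per Mb.

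The first intron stood out within the zone. It held 849 members (78.4%, 75.8 to 80.7%) and 61.5% of the eligible bases. That is 113 summits per Mb of first intron (105.9 to 121.3), against 49.9 per Mb of the remaining eligible sequence (43.7 to 56.7). The gap was present on both sides of the start. Downstream, first introns held 110.0 per Mb (101.3 to 119.1) and other sequence 49.5 (41.3 to 58.9), and upstream the values were 122.6 (107.9 to 138.7) and 50.4 (41.3 to 60.9). In the replicates, 79.1% and 79.9% of members were in a first intron (mean 79.5% ± 0.56, SD, n = 2).

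Most members sat inside the gene whose start was nearest. Downstream of that start and inside its gene were 674 members, and 242 lay upstream of an internal start of a gene that held them. A further 116 lay upstream of the start of a gene that did not hold them, and 51 lay downstream of a start but inside another gene. A protein-coding gene held 1047 members, and 98 lay in 2 or more genes. Exons of noncoding transcripts, which the rule does not exclude, held 47 members (4.34%, 3.28 to 5.72%) and 6.12% of eligible bases. The intron around a member had a median length of 3342 bp, against 4787.5 bp for windows tiled over the zone. The nearest start is a position only, and does not show which gene a peak acts on.

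The intervals of the 5 large chromosome arms overlapped. The members per Mb of eligible sequence were 88.4 on 2L, 101 on 2R (88.1 to 114.7), 84.3 on 3L, 95.6 on 3R and 78.6 on X (67.6 to 90.9). Chromosome 4, the smallest, had 4 members in 0.141 Mb, which is 28.3 per Mb (7.71 to 72.4), an interval that overlaps that of X and no other arm.

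The second question was whether these peaks were as strong as promoter peaks and as repeatable. The deposited signal, in the authors' units, ranged from 163 to 3316 among members, with a median of 256 (95% order-statistic interval 246 to 265). The median was 254 (250 to 259) for promoter peaks, 247 (239 to 255) for far intronic peaks and 245 (237 to 259) for intergenic peaks. Taking 1 member and 1 promoter peak at a time, the member was the higher in 49.7% of pairs, and against far intronic peaks in 52.3%. Members made up 6 of the 20 strongest thresholded peaks, 17 of the strongest 100 and 164 of the strongest 1000. The strongest 1000 thus held 15.1% of members, 15.0% of promoter peaks and 11.2% of far intronic peaks.

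Of the pooled candidates, the long list from which the thresholded peaks were taken, 23.4% were thresholded. In the near-start intronic zone it was 1083 of 4583, or 23.6% (22.4 to 24.9%), close to that background. The share was 34.3% (33.5 to 35.2%) for candidates at promoters and 13.1% for both far intronic (12.3 to 13.8%) and intergenic candidates (11.98 to 14.2%).

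Overlap with the highest candidates of both replicates was found for 914 members, or 84.4% (82.1 to 86.4%), beside 83.9% of all thresholded peaks. The thresholded list was itself made from these libraries, so this describes the ranking and is no independent test. The difference to promoter peaks was 0.36 percentage points (95% Newcombe interval -2.15 to 2.69), and the difference to far intronic peaks was 1.29 points (-1.91 to 4.51). Of the members, 1006 overlapped the highest candidates of replicate 2 and 987 those of replicate 3, while 4 overlapped neither. Spearman's rho of the signal in the replicates was 0.81 over 1081 members with a candidate in each, matched to the strongest overlapping one, against 0.79 over 7000 thresholded peaks. Neighbouring members can match the same candidate. A summit within 100 bp in both replicates was found for 789 members (72.9%).

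The third question was which genes held the strongest near-start intronic peaks. The strongest peak of the whole experiment was a member, in the intron of CG11050, with a pooled signal of 3316. Its signal was 1782 in replicate 2 and 1535 in replicate 3, the first rank in each. The summit lay 1019 bp downstream of the nearest start of CG11050, on 2L at 6612706, in an interval from 6612294 to 6613011. The nearest start itself had no thresholded peak within 500 bp, but another start of CG11050 had one.

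By signal among members, ush ranked 2, Trl 4 and GATAd 10. The ush intron had a pooled signal of 2569, with 1446 in replicate 2 and 1122 in replicate 3. Its summit on 2L at 481080 was in the first intron of ush and 1392 bp upstream of the start of cabut (cbt), a zinc-finger factor gene, whose own start had a peak of 685. An intron of Trl, which encodes the GAGA factor, had a pooled signal of 2283, with 1232 in replicate 2 and 1056 in replicate 3. That summit, on 3L at 14759513, held neither GAGAGAG nor GATAAG within 100 bp. The GATAd first intron had a pooled signal of 1339, with 760.2 in replicate 2 and 583.9 in replicate 3, and again no GATAAG within 100 bp.

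A member in lncRNA:Vinr, a long noncoding RNA gene on X, had a pooled signal of 2550, with 1395 in replicate 2 and 1126 in replicate 3, and lay 515 bp upstream of lncRNA:CR44619. No annotated intron of lncRNA:Vinr held this summit, which the rule kept because it does not exclude exons of noncoding transcripts. CG9663 had a pooled signal of 1938, with 1057 in replicate 2 and 863 in replicate 3. CG32772 had 1644, with 907 and 738.5, and CG3726 had 1416, with 740.7 and 673.5, in the same order. CG9837 held 2 of the 25 strongest, of 1184 and 1172, whose summits at 8810620 and 8811693 on 3R lay on the same side of its start. The replicates ranked the former 83 and 53 and the latter 51 and 104.

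Lk6 had a pooled signal of 1869, with 987.4 in replicate 2 and 845.3 in replicate 3. The first intron of chiffon (chif), a Dbf4-like activator of replication origins, had a pooled signal of 1493. norpA, the phospholipase C of phototransduction, had 1148, and foraging (for), a cGMP-dependent protein kinase, had 1099. SCaMC, a mitochondrial carrier, had 1134 and COX7AL2, a cytochrome c oxidase subunit, had 1020. Nedd4, a ubiquitin ligase, had 1010, in an intron where the nearest start was that of lncRNA:CR45165.

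HmgZ, an HMG-box protein of chromatin, had 1290, and Adf1, a transcription factor of the MADF family, had 1214. The Adf1 peak was the only 1 of the 25 with a higher signal in replicate 3, at 627.0, than in replicate 2, at 568.2. rost, a membrane protein of myoblast fusion, had 1000.9 and PAN3, a subunit of a deadenylase, had 969.6. CHES-1-like had 956, CG9921 1023, CG4496 1008 and CG9135 977.3. All 25 were among the highest candidates of both replicates, with ranks down to 175 in replicate 2 and 202 in replicate 3.

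**Figure D2:**
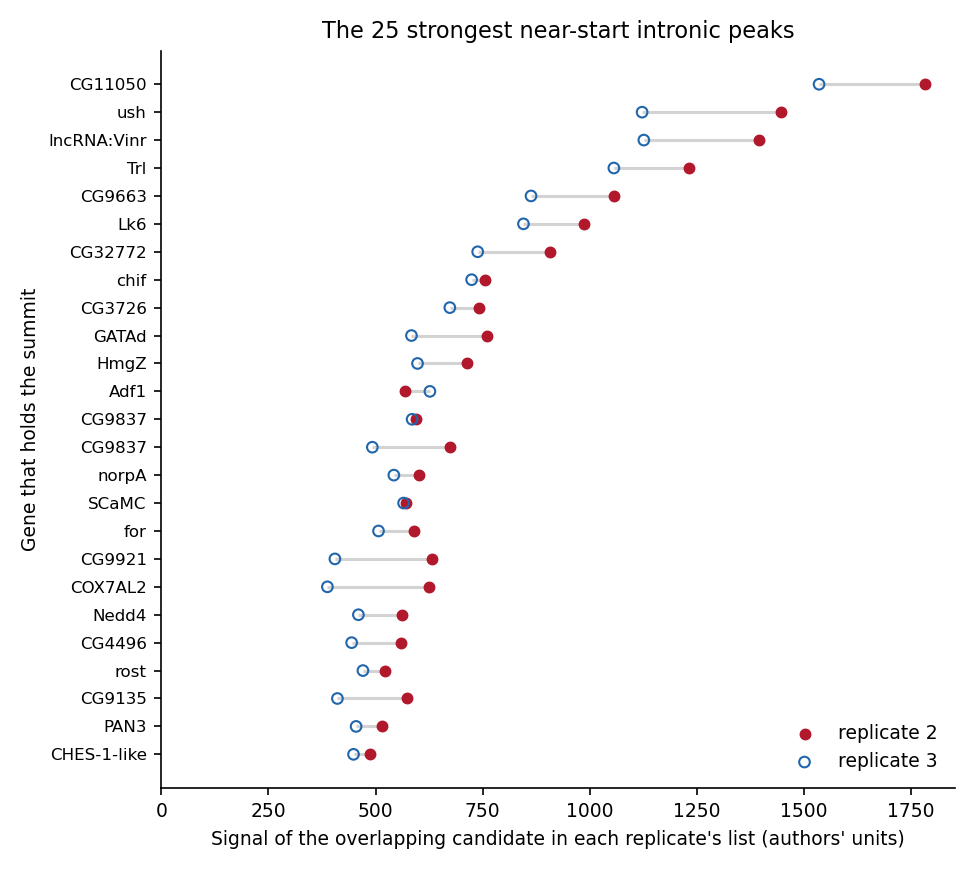
Signal in replicate 2 (filled red) and replicate 3 (open blue), in the authors' units on each list's own scale (horizontal axis), for the 25 strongest members by pooled signal, each named by the gene that holds it (vertical axis). The lines join the replicates of 1 member. CG11050 is highest in both, at 1782 and 1535.

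Of these 25 members, 21 were in a first intron, 14 lay downstream of the nearest start, and 10 had a thresholded peak at that start. Over all members the shares were 78.4%, 66.9% and 46.8% in the same order, and 25 peaks are too few to set apart from these. The replicate lists have separate scales, so the generally higher values of replicate 2 are not read as stronger binding.

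The fourth question was whether the start beside a member was bound as well. For 791 members (73.0%, 70.3 to 75.6%) a gene that held them had a thresholded summit within 500 bp of any of its starts. Over all thresholded peaks it was 62.2%. These include peaks that no gene holds, and promoter peaks inside a gene, which can count themselves as the bound summit. The 62.2% is thus no background to read the share of members against. The share of members was lower than for far intronic peaks, at 80.2%, with a difference of -7.17 points (-10.8 to -3.50). A gene with more starts has more chances to count as bound, and the number of starts was not taken into account. In the replicates the share with a bound host gene was 73.6% and 73.8% for members, and 81.4% and 77.1% for far intronic peaks. The nearest start itself was bound for 507 members (46.8%, 43.9 to 49.8%), against 50.4% of far intronic peaks, a difference whose interval holds 0 (-7.87 to 0.79).

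Where the nearest start was bound, the member was the stronger of the pair in 214 of 507 cases (42.2%). The medians were 260 for the member and 285 for the strongest peak at the start. The members whose nearest start was not bound had a median of 253, and the 292 with no bound start in any gene that held them had a median of 241. Summits near members were close, with a median of 1153 bp to the next thresholded summit (1059 to 1225), against 1936 bp for promoter peaks and 2146 bp for far intronic peaks. The rule itself places members within 2000 bp of a start, so a bound start shortens this distance. Another summit shared the same interval for 103 members.

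The fifth question was what sequence the summits shared, which the rule did not use. GATAAG, on either strand, was within 100 bp of the summit in 387 members (35.7%, 32.9 to 38.6%), and 25.4% of all thresholded peaks held it. In windows of the same length tiled over the same zone the share was 10.4%, so members had it 3.43 times as often, a difference of 25.3 points (22.5 to 28.2). With windows 600 bp away from the members' own summits as the background, the share was 12.9% and the ratio was lower, at 2.77. In the same zone, 3112 of the candidates that were not thresholded, though not all of them, were compared. They had GATAAG in 19.3%, a difference of 16.4 points (13.3 to 19.6). The replicates gave 34.9% and 35.5% (mean 35.2% ± 0.43, SD, n = 2).

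The GATA word was more frequent in near-start introns than at promoters, and no difference to introns further away was detectable. It was near 19.9% of promoter summits, a difference of 15.8 points (12.7 to 18.9), and near 27.7% of intergenic summits, a difference of 8.05 points (2.98 to 12.9). Far intronic summits had it in 35.5%, and the difference of 0.19 points had an interval of -3.97 to 4.33. A wider set of GATA words, with A or T before GATA and A or G after it, overlaps GATAAG and was found in 61.6% of members, 40.6% of promoter summits and 34.4% of tiled windows. The GC content was 41.2% in member windows, 42.1% at promoter summits and 39.9% in tiled windows, and its part in the motif shares was not tested.

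GATAAG was concentrated at the summit itself. In bins of 50 bp, 11.7% of members held it just left of the summit and 14.3% just right of it. Beyond 400 bp the bins held between 2.59% and 4.25%. Among the 387 members with the word within 100 bp, the nearest copy was a median of 37 bp from the summit (33 to 41). That limit of 100 bp bounds this distance, so the bins show the concentration and the median does not. More than 1 copy within 100 bp was uncommon but far from the background: 82 members had 2 copies (7.57%, against 1.02% of tiled windows), and 26 had 3 or more (2.40%, against 0.106%).

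**Figure D3:**
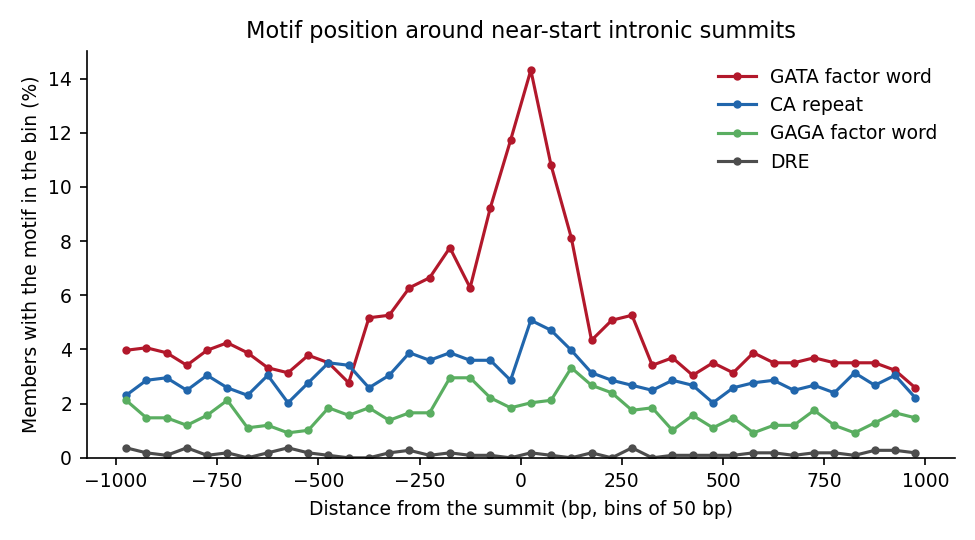
Share of the 1083 members with a motif in each bin of 50 bp (vertical axis, percent) by distance from the summit in bp (horizontal axis), on either strand, for the GATA factor word (red), a CA repeat (blue), the GAGA factor word (green) and the DRE (grey). The GATA factor word reaches 14.3% beside the summit, and the DRE stays below 1% throughout.

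Among members, which all lie above the threshold, peak signal was similar with and without the GATA word. Below the threshold, 19.3% of the compared candidates of the zone held it, so this similarity does not cover the whole range of signal. Members with GATAAG had a median signal of 255 (241 to 266) and members without it 256 (243 to 269). In 4 equal parts by signal, from the lowest to the highest, the share was 35.8%, 35.8%, 37.8% and 33.6%. Only 4 of the 25 strongest members had the word (16.0%, 6.4 to 34.7%), and 31 of the strongest 100 (22.8 to 40.6%). Anywhere in the peak interval, it was in 7 of the 25 strongest and in 48.3% of all members.

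Within the zone, the GATA word was more frequent away from first introns. It was near 44.4% of the 234 members outside first introns (38.2 to 50.8%) and near 33.3% of the 849 in first introns (30.2 to 36.6%). Tiled windows went the other way, with 9.65% outside and 10.9% inside first introns. By distance, the share lay between 29.2% and 45.6%, with the highest value in the last 250 bp of the zone. It was 34.7% where the nearest start was bound (30.7 to 39.0%) and 36.6% where it was not (32.8 to 40.6%), with overlapping intervals.

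The DRE was near 4 members (0.37%) and near 5.18% of promoter summits, a difference of -4.81 points (-5.55 to -3.97), while tiled windows had it in 0.42%. With an outer limit of 1000 bp the DRE was near 0.84% of members, and with 50 bp on each side of the summit near 0.18%. The core of Motif 1, GTCACACT, a word of the promoter factor M1BP, was near 2 members (0.18%), 3.56% of promoter summits and 0.35% of tiled windows. The E-box CAGCTG was near 9.23% of members, 14.6% of promoter summits and 7.61% of tiled windows, and ACACTG, which overlaps the end of Motif 1, near 10.4%, 16.2% and 7.08%. CAGCTG and ACACTG were thus less frequent at members than at promoters and more frequent than in tiled windows, by 1.62 points (0.023 to 3.50) and 3.36 points (1.66 to 5.33). CGATA, the end of the DRE, was near 35.5% of members, 39.0% of promoter summits and 21.0% of tiled windows, a difference to the latter of 14.4 points (11.6 to 17.3). CGATA can also overlap GATAAG, as in the CG9837 line above, so its share is not separate from that of the GATA word.

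Repeats and some other factor words were more frequent at members than in the zone at large. GAGAGAG was near 7.20% of members and 3.10% of tiled windows, a difference of 4.11 points (2.71 to 5.81), and near 8.04% of promoter summits. The repeat CACACAC was near 13.7% of members and 7.21% of tiled windows. Within 50 bp of the summit, the shares of members were 3.51% for GAGAGAG and 6.56% for CACACAC. The forkhead word TAAACA was near 27.4% of members and 21.2% of tiled windows, and the AP-1 word TGACTCA, bound by Fos and Jun, near 3.79% and 2.36%. Of 27 motifs searched on both strands, 11 had an interval of the difference to tiled windows above 0, 4 below 0 and 12 that held 0. Against the 3112 candidates that were not thresholded, the counts were 5, 1 and 21, and the intervals for GAGAGAG and CACACAC held 0.

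The words that were rarer at members than in tiled windows were a run of A, AAAAAAA, the homeodomain word TAATTA, the TEAD word GGAATG and the Pleiohomeotic word GCCATTT. The homeodomain word was near 12.4% of members and 15.1% of tiled windows, and the TEAD word near 6.83% and 9.63%. The Pleiohomeotic word was near 3.88% and 5.99%. The interval of the difference to far intronic summits held 0 for the homeodomain, TEAD and Pleiohomeotic words, and lay below 0 for the run of A. A match is a run of letters, not a bound site.

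**Figure D4:**
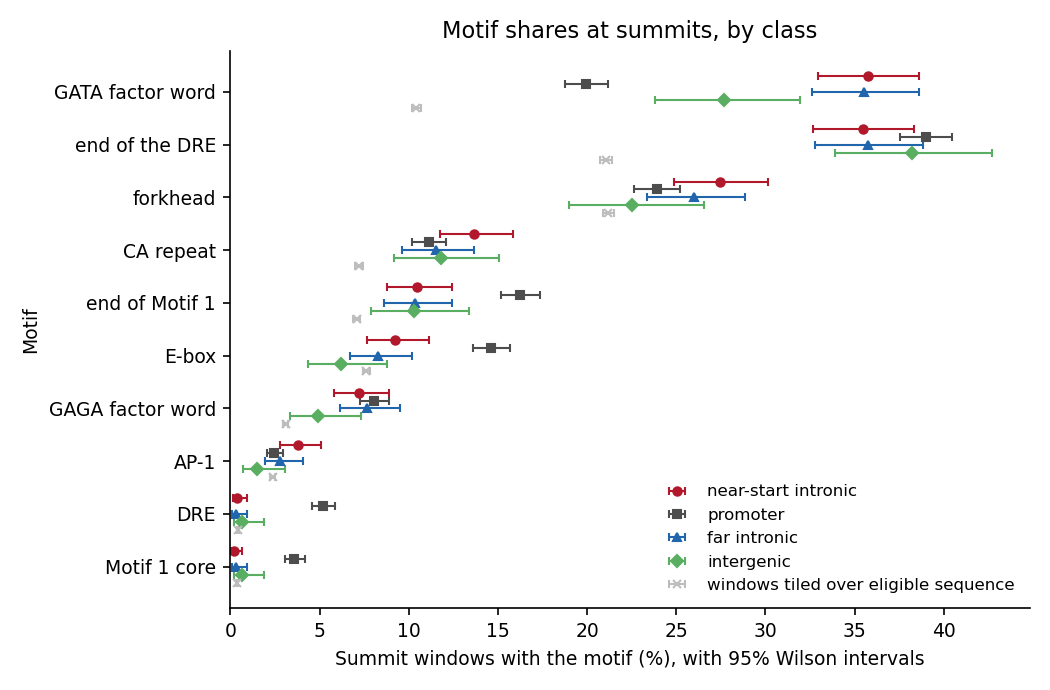
Share of summit windows of 201 bp that hold each motif (horizontal axis, percent, with 95% Wilson intervals over peaks) for near-start intronic, promoter, far intronic and intergenic peaks and for windows tiled over the near-start intronic zone, by motif (vertical axis). The GATA factor word is near 35.7% of members and 19.9% of promoter summits, and the DRE near 0.37% and 5.18%.

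Among members, GATA words and repeats tended to fall in different peaks. GAGAGAG was near 3.10% of the members with GATAAG (1.78 to 5.34%) and 9.48% of those without (7.52 to 11.9%). CACACAC was near 7.75% (5.48 to 10.9%) and 17.0% (14.3 to 19.9%). Neither GATAAG, the DRE nor GAGAGAG was found within 100 bp in 627 members (57.9%, 54.9 to 60.8%). The same shares for other peaks or tiled windows are not given, so none of this is read as particular to members.

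The last question was which kinds of genes held near-start intronic peaks. Of 10672 genes with eligible sequence, 842 held a member, which is 7.89%, and among protein-coding genes it was 792 of 9057, or 8.74%. The share rose with the sequence a gene offers, from 0.62% of protein-coding genes with up to 500 bp of it to 32.0% of those with more than 4000 bp. Counting each member once, in 1 gene, 774 genes held them: 559 had 1 member, 159 had 2, 35 had 3 and 21 had 4 or more.

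Counts of members per gene do not take into account a gene's eligible sequence or its number of starts. The genes with the most members had 7 each. SNF4Agamma, the gamma subunit of the energy sensor AMPK, held 7 with signals from 207 to 591. schnurri (shn), a zinc-finger factor of Dpp signalling, held 7 from 249 to 498, and Tlk, the Tousled-like kinase of chromatin assembly, held 7 from 164 to 451. CG14434 and lncRNA:CR43334 held 6 each, with medians of 282 and 208. NFAT, toutatis (tou), puckered (puc) and Pepck2 held 5 each. Pepck2, an enzyme of glucose synthesis, was the 1 gene of the 21 with no thresholded peak at any of its starts.

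A further 12 genes, of varied function, had 4 members each. CHES-1-like had a lowest signal of 437 and a highest of 956, and PAN3 had a median of 600. The stress factor gene Xrp1 reached 839, the oxidative stress factor gene cap-n-collar (cnc) reached 584 and the insulin receptor gene InR reached 389. Sarm, an enzyme of axon degeneration, reached 704 and pasilla (ps), a splicing regulator, reached 558. HmgZ, CG42258, CG5953, mustard (mtd) and CG3764 were the others.

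Gene groups were read from 20 lists of 284 genes, drawn up with earlier results of these data known. Of the 251 listed genes with eligible sequence, 66 held a member (26.3%, 21.2 to 32.1%). Protein-coding genes with as much eligible sequence as the listed ones held a member at a rate of 16.8%. The lists are short, the genes in them were not sampled at random, and no list was tested.

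GATA factors and their cofactor had the highest share, with 4 of 6, where genes with as much eligible sequence had 25.1%. Beside ush and GATAd, srp, the GATA factor of blood and fat body, held 2 members with signals up to 391 (rank 1351 in replicate 2 and 1543 in replicate 3). GATAe, the gut GATA factor, held 1 of 239 and was named after its value was seen, as were pnr and grain (grn), which held none. A second member of GATAd had a signal of 589.

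Insulin and TOR genes had 6 of 11, beside a rate of 17.0% for as much sequence. The strongest were Lk6, S6k, the ribosomal protein S6 kinase, at 685, and InR at 389. S6k ranked 392 in replicate 2 and 325 in replicate 3, and had 2 copies of GATAAG within 100 bp. Stress and immediate early genes had 6 of 12, beside 22.2%, led by cnc at 584, puc, a phosphatase that restrains JNK signalling, at 411, and REPTOR, a factor of the response to low TOR activity, at 380.

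Hemocyte and basement membrane genes had 6 of 14, beside 13.2%. LanA, the alpha chain of laminin, reached 445, viking (vkg), a chain of collagen IV, 412, and SPARC, a collagen-binding protein, 371. Genes of EGFR and JAK-STAT signalling had 6 of 15, beside 18.7%, led by the inhibitor sprouty (sty) at 607, the transcription factor gene Stat92E at 317 and the Ets factor gene pointed (pnt) at 304. GAGA-binding, core promoter and insulator factors had 4 of 12, beside 11%, with Trl ahead of mod(mdg4), an insulator protein, at 473 and lola, a BTB zinc-finger factor, at 239.

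Cytoskeleton and adhesion genes had 6 of 19, beside 15.4%, led by twinstar (tsr), the fly cofilin, at 427, rhea, the fly talin, at 367 and Moesin (Moe) at 314. Polycomb and trithorax genes had 4 of 19, beside 10.7%, led by osa at 575, polyhomeotic proximal (ph-p) at 552 and trithorax (trx) at 253. Glycolysis genes had 3 of 11, beside 12.1%, which were trehalase (Treh) at 331, pyruvate kinase (PyK) at 264 and glucose-6-phosphate isomerase (Pgi) at 169. Clock genes had 3 of 10, beside 19.4%, led by Pdp1 at 591.

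Other lists were close to the rate of genes with as much eligible sequence. Ecdysone response genes had 4 of 13, beside 26.5%, led by Eip63F-1 at 401, the ecdysone receptor gene EcR at 329 and Kr-h1 at 290. Dorsoventral and Dpp genes had 3 of 11, beside 23.3%, which were shn, the inhibitor gene Dad at 321 and the Smad gene Mad at 307. Notch pathway genes had 3 of 11, beside 20.3%, led by mastermind (mam) at 445, and muscle and mesoderm genes had 3 of 18, beside 16.1%, led by myoblast city (mbc) at 471 and zfh1 at 467.

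The remaining lists had 1 gene or none, each below the rate of genes with as much eligible sequence. Of 14 anteroposterior patterning genes it was hedgehog (hh) at 229, beside 10.5%. Of 10 Hox genes and cofactors it was Abd-B at 183, beside 20.2%. Abd-B had no overlapping candidate in replicate 2 and rank 6353 in replicate 3. Of 11 Hippo pathway genes it was kibra at 163, beside 13.3%. The pan-neuronal RNA-binding protein gene elav, at 453, was the 1 of 13 neural and glial genes, beside 16.2%. The protease gene Mmp1, at 201, was the 1 of 11 genes of trachea and epidermis, beside 22.6%. None of 10 cell cycle genes held a member, beside a rate of 11.6% for as much sequence.

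**Figure D5:**
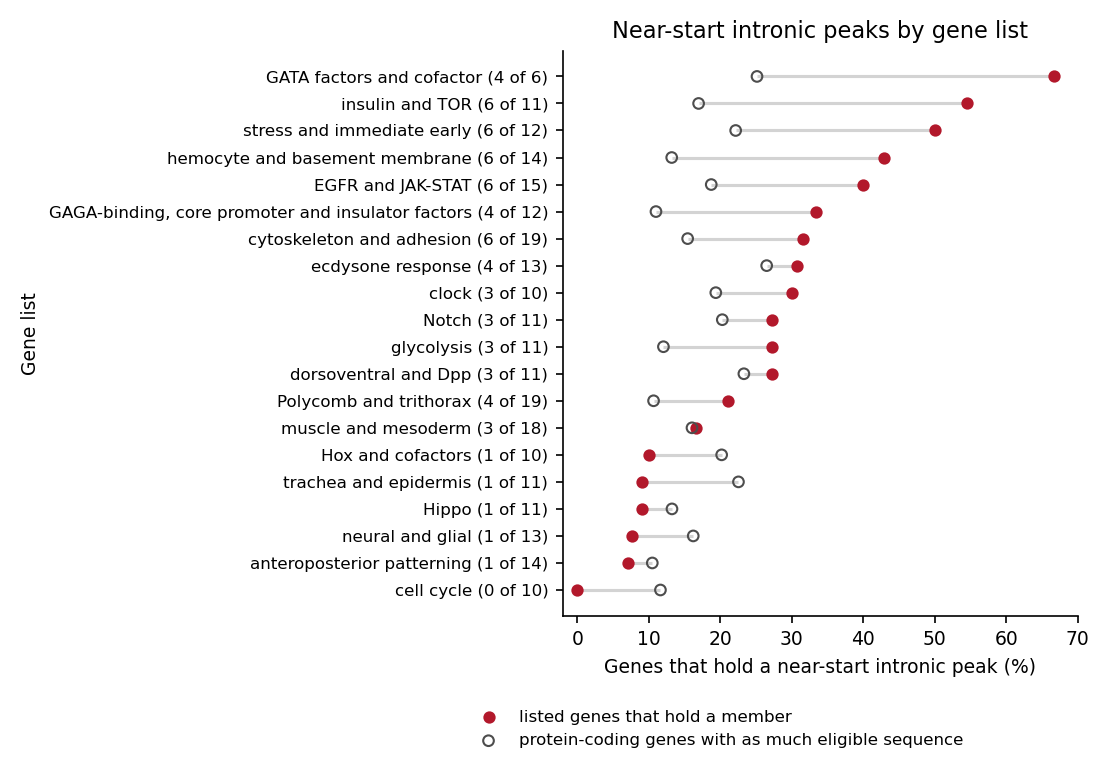
Share of listed genes with eligible sequence that hold a near-start intronic peak (filled red, horizontal axis, percent) and the rate of protein-coding genes with as much eligible sequence (open circles), for 20 gene lists (vertical axis, with counts). GATA factors and their cofactor are highest with 4 of 6, and cell cycle genes lowest with 0 of 10.

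At the limits of the rule, values were ordinary. Just inside the inner limit were Pp2A-29B, with a signal of 191, CG44774 at 164 and InR at 317, and just outside it osp at 234, curled (cu) at 247 and arouser (aru) at 452. Just inside the outer limit were pnt at 199, ken at 208 and CG15673 at 521, and just outside it CG7920 at 200.1, Trl at 270.4 and lncRNA:CR44320 at 296.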

How the data were processed

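Per the labels, both libraries are ChIP-seq of CG34376-GFP embryos on build dm6. The authors deposited candidate peaks for each replicate and for their pool (30000 each, a preset length), and 7025 thresholded peaks. Each has the authors' signal value, whose scale is not stated, a deposited −log10 q value, not used in any result, and a summit offset. Both replicates were set against 1 control, per the labels' file listings, and the thresholded set follows an irreproducible discovery rate step. The name of the aligner or caller was not given in the sources used here. The thresholded peaks are the pooled peaks of highest signal.

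Summits were annotated with 18164 genes and 23581 starts of the Ensembl annotation (BDGP6.54), without transposable elements, and sequence came from RefSeq. For 2 summits past the end of their interval, neither a member, the last base was used. Windows of 201 bp were tiled over eligible sequence, motifs were searched on both strands, and overlap means at least 1 bp. Python 3.11.15, numpy 2.4.6, pandas 2.3.3 and SciPy 1.17.1 were used, and classification and motif search were checked against direct search.

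With 1 group, no test was made. Wilson, Newcombe, Poisson and order-statistic intervals of 95% cover counting of peaks only, and neighbouring peaks are not independent. Library depth is unknown. The members, lists, motifs and alternatives were chosen with earlier results of these data known. Named genes hold, or have the start nearest to, the 25 strongest members; hold 4 or more members; are the 3 with the strongest member in each list; lie at the distance limits; or have a sequence shown. Of the listed symbols, 4 had no match.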

Additional observations from a re-analysis of the deposited data

How the results depend on the processing

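No paired analysis was possible because there is 1 group and no test. Library depth is unknown, and the list has a threshold, so weaker sites are not counted. No processing alternative brought the member share with GATAAG down to the promoter share: the difference to promoter peaks ranged from 10.6 to 16.7 points. Each replicate alone gave 14.8 to 15.9 points for that difference, 34.9 to 35.5% of members with GATAAG, 79.1 to 79.9% in a first intron, 73.6 to 73.8% with a bound host gene, and 0.999 to 1.00 for the ratio of the member median signal to the promoter median. With 1 replicate alone, the median signal is on another scale and is not set beside the pooled value.

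The stronger 3512 of the thresholded peaks, which by construction hold fewer peaks of higher signal, gave 553 members, 45.4 per Mb, a median of 355, a signal ratio of 0.986, 99.6% in both replicates, 64.9% downstream, 79.2% in a first intron, 57.9% with a bound host and a GATAAG difference to promoter peaks of 14.1 points. With 1 summit per merged region the values were 77.6 per Mb, a signal ratio of 0.999, 68.4% downstream, 72.4% with a bound host, 36.5% with GATAAG, a difference of 16.7 points and 27.2% of candidates thresholded. With starts of protein-coding genes only they were 97.0 per Mb, a ratio of 1.01, 80.5% in a first intron and 74.3% with a bound host, and with protein-coding gene bodies only a ratio of 1.01, 80.7% and 73.9%. With an outer limit of 1000 bp, 62.8% lay downstream, 79.9% in a first intron, 67.2% had a bound host and 25.3% of candidates were thresholded.

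With 50 bp on each side of the summit, GATAAG was in 22.7% of members, 10.6 points above promoter peaks, and anywhere in the interval, an alternative added after the data were seen, in 48.3%. A replicate summit within 100 bp, in place of an overlap, was found for 72.9%. The difference in GATAAG between members and far intronic peaks changed sign in the stronger 3512 (-0.70 points) and with the outer limit of 1000 bp (-0.19 points), where the cause was not tested. Some shifts were larger than the spread between replicates. With 1 summit per merged region the members numbered 945, beside 1083 in the main setting and 1104 and 1043 in the replicates. The listed genes with a member numbered 45 to 67 under the alternatives, beside 66.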
